A study of Mus musculus with 17 samples.

Results

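A set of 7 miRNA names that mark red blood cells was followed in small RNA libraries from mouse fecal exosomes: mmu-miR-451a, mmu-miR-144-3p, mmu-miR-144-5p, mmu-miR-486a-5p, mmu-miR-486a-3p, mmu-miR-486b-5p and mmu-miR-486b-3p. They were chosen by name as markers of blood in the gut lumen, and 4 of the 7 were among the 1487 small RNA (smRNA) rows of the count table. These 4 were miR-451a, miR-486a-5p, miR-486a-3p and miR-486b-5p, and the other 3 were not analysed here. All 17 libraries came from individually housed mice that lack interleukin 10 (IL-10 KO, C57BL/6J background), obtained at 4 weeks of age. Without interleukin 10, a cytokine that restrains inflammation, such mice are known to develop inflammation of the bowel. They fall into 2 time points, with 10 libraries at the start-point (7 from males, 3 from females) and 7 at the end-point (5 from males, 2 from females), and no treatment beside housing is named. No wild-type library was analysed here, and the ages at the time points are not given in the sources used here. End-point libraries 1 and 2 both carry the label of mouse 1, so the 7 end-point libraries came from 6 mice.

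Red blood cells have no nucleus in mammals but keep a small set of very abundant miRNAs from their precursors. The cluster of miR-144 and miR-451a is switched on by the transcription factor GATA1 during red cell formation, and miR-451a is among the most abundant miRNAs of mature red cells. It is also unusual in its making, because its hairpin is cut by the Argonaute protein AGO2 and not by Dicer. miR-486 lies within Ank1, the gene of the red cell membrane protein ankyrin 1, and is also made in skeletal and heart muscle, so it is a less specific marker of blood than miR-451a. In plasma and serum, the ratio of miR-451a to miR-23a-3p, a miRNA that lysis of red cells hardly changes, is in common use as a measure of hemolysis.

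The sequence of miR-451a is shown because it is the red cell marker described first, with those of its cluster neighbours for comparison. Capitals mark the seed, bases 2 to 8 from the 5′ end, which pairs with targets. The sequences are from RefSeq on GRCm38.p6.
miR-451a: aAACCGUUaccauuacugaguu
miR-144-3p: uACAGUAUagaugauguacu
miR-144-5p: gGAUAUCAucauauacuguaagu
No 2 of these share a seed, and no other mature miRNA of that RefSeq table shared bases 2 to 7 with miR-451a. The hairpin of miR-451a is shown to make its unusual form visible, with the mature miRNA in capitals running from base 17 to base 38 of 72 and so into the loop.
Mir451a hairpin: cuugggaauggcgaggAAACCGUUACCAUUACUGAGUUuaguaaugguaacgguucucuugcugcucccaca
Mir451a lies at chr11:78073170-78073241 on the plus strand of GRCm38.p6, 99 bases after the Mir144 hairpin at chr11:78073005-78073070, and neither overlaps another gene of the GENCODE vM21 annotation apart from miRNA genes. Mir486, which gives miR-486a, lies at chr8:23142555-23142682 in an intron of Ank1. Mir3107, the gene that gives miR-486b, lies inside that interval at chr8:23142573-23142662. Both also lie in an intron of the antisense gene Gm15816. Because these genes overlap and their products are nearly alike, and because the assignment of reads to such miRNAs is not given in the sources used here, the split of counts between the miR-486a and miR-486b rows is uncertain.

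Library totals ran from 87527 to 178075 counts at the start-point and from 32320 to 161862 at the end-point, and end-point libraries 1, 3 and 7 held fewer than 75000. Levels are given as CPM, the count divided by the library total and multiplied by 1000000, and 3 counts, taken as the floor, were worth 16.8 to 34.3 CPM at the start-point and 18.5 to 92.8 CPM at the end-point. All 4 miRNAs were sparse: together they held 817 ± 322 CPM (SD, n = 10) in start-point libraries, from 410 to 1264 CPM, and 469 ± 350 CPM (SD, n = 7) in end-point libraries, from 55.6 to 1065 CPM. These sums overlap between the time points. Intervals on single libraries below are exact 95% binomial intervals and cover counting error only. As these are bulk exosome preparations, fewer vesicles from a cell type and less of the miRNA per vesicle cannot be told apart.

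miR-451a, the red cell marker of the set, was near absent at the start-point and was found in more libraries, at higher levels, at the end-point. At the start-point 8 of 10 libraries held 0 counts, and libraries 3 and 9 held 4 and 5 counts, or 27.0 and 38.4 CPM. At the end-point 4 of 7 libraries held it: library 4 had 8 counts (68.4 CPM, interval 29.6 to 135), library 5 had 8 counts (67.5 CPM, 29.2 to 133), library 6 had 51 counts (338 CPM, 251 to 444) and library 7 had 10 counts (157 CPM, 75.1 to 288). Each of these 4 lay above every start-point library, while end-point libraries 1, 2 and 3, all from males, held 0. At 0 counts the floor of 3 counts was 54.8 CPM in end-point library 1, 18.5 CPM in library 2 and 92.8 CPM in library 3. The exact two-sided intervals reached to 67.4, 22.8 and 114 CPM. For libraries 1 and 3 a level like that of the highest start-point library was therefore not excluded at this depth. The start-point mean was 6.54 ± 14.1 CPM (SD, n = 10), the end-point mean was 90.0 ± 123 CPM (SD, n = 7), and the rank of miR-451a by mean CPM among the 1487 smRNAs was 1479 at the start-point and 1027 at the end-point.

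**Figure D1:**
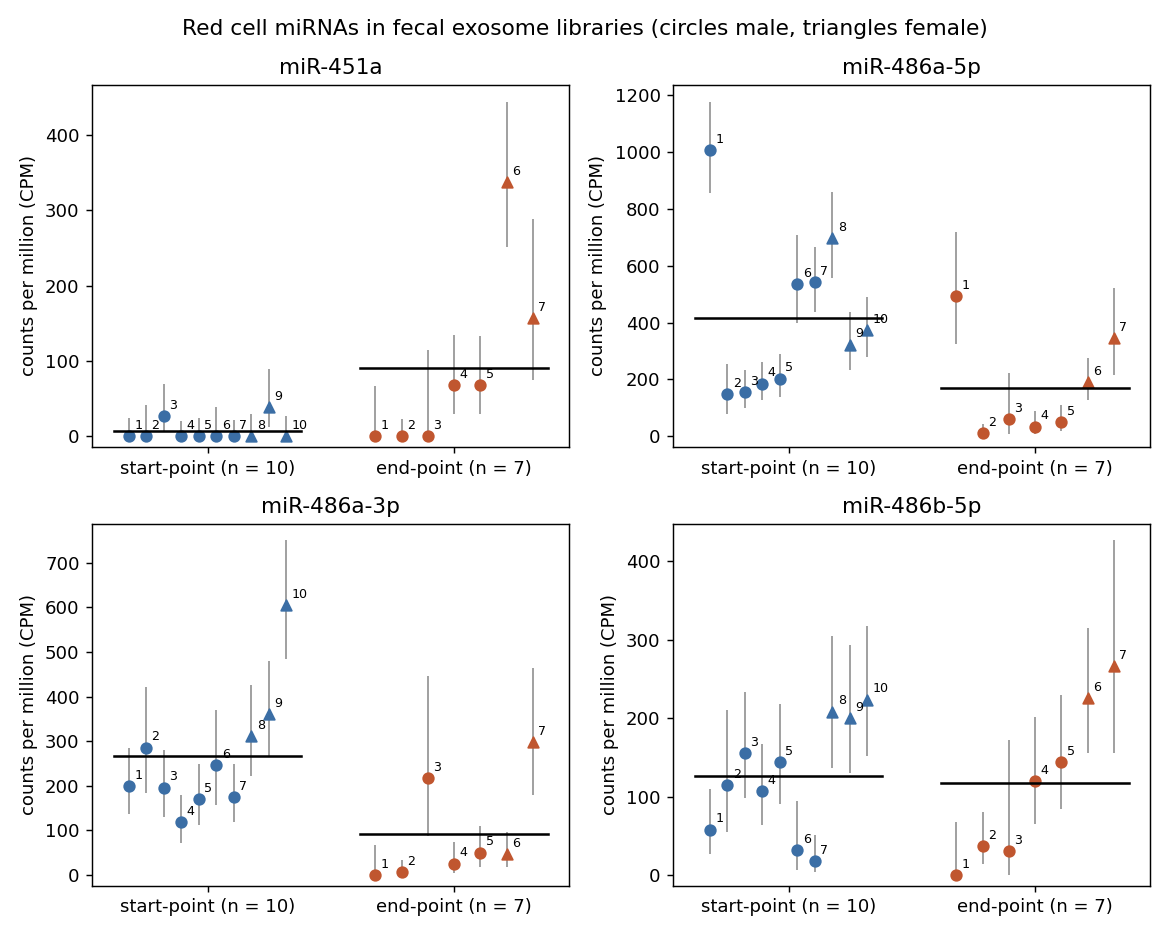
CPM of the 4 miRNAs in each library, start-point left and end-point right, with exact 95% binomial intervals, a horizontal line at the group mean, circles for male and triangles for female mice, and the replicate number beside each point. End-point libraries 4 to 7 lie above every start-point library for miR-451a, while 4 of 7 end-point libraries lie below every start-point library for miR-486a-5p and 5 of 7 for miR-486a-3p.

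With so few counts miR-451a did not pass the filter on low counts, so the main test gave no value for it. Without the filter, edgeR's quasi-likelihood test over all 1487 smRNAs called miR-451a higher in end-point libraries (log2 fold change 4.24 ± 1.07 (SE), adjusted p 0.00276). The same fit called 33.2% of all smRNAs, and 16.9% higher. The size of this fold change depends on how zeros are smoothed, and it is no bound. In the same unfiltered fit with mouse as a block it was 3.86 ± 1.59 (SE) with an adjusted p of 0.140, and with male libraries only 3.31 with an adjusted p of 0.0928, so the call was lost in both. Those fits called 6.86% and 16.3% of all smRNAs. Without end-point library 6, which held 51 of the 77 end-point counts, it was 3.29 with an adjusted p of 0.0236, and without end-point library 2, the second of mouse 1, 4.45 with 0.00168, in fits that called 29.1% and 32.7% of all smRNAs. A test that needs no model across smRNAs, the exact two-sided permutation test of log2 CPM with 0.5 added to each count, gave a difference of 2.72 with p = 0.0125, which adjusted over 4 such tests was 0.05, at the threshold. On that scale a count of 0 stands higher in a shallow library, at 3.19 and 3.95 in end-point libraries 1 and 3 against 1.49 to 2.51 in the start-point libraries at 0. Without the 3 libraries under 75000 counts, end-point library 7 included, the difference was 3.04 with an exact permutation p of 0.016, unadjusted. Within mice, miR-451a was higher at the end-point in 4 of 6 animals, lower in mouse 3 and at 0 at both time points in mouse 1, and the exact sign-flip permutation p was 0.0938, where the smallest possible is 0.0312.

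The highest levels of miR-451a were in the 2 female end-point libraries, 6 and 7. Female libraries at the end-point averaged 247 ± 128 CPM (SD, n = 2) and male libraries 27.2 ± 37.2 CPM (SD, n = 5). Mouse 11, a female, was the only animal with miR-451a at both time points, at 38.4 and 157 CPM. In the unfiltered edgeR fit with time point as a covariate, females stood 1.87 ± 1.12 (SE) above males on the log2 scale, adjusted p 0.584, so a difference by sex was not shown.

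The hemolysis ratio was not shown to differ between the time points, and its reference was itself called higher. The log2 ratio of miR-451a to miR-23a-3p ran from -8.46 to -3.84 at the start-point and from -10.2 to -1.22 at the end-point, and the means were -6.04 ± 1.52 (SD, n = 10) and -4.65 ± 3.07 (SD, n = 7). By the exact permutation test, two-sided, the difference of 1.39 had p = 0.233, or 0.311 after adjustment. The reference itself was not steady: miR-23a-3p ran from 90.3 to 1409 CPM at the start-point and from 291 to 8574 CPM at the end-point. It was at 3664 CPM in end-point library 2 and 8574 CPM in end-point library 6. In the other end-point libraries it ran from 291 to 866 CPM, within the start-point range. The medians were 383 CPM at the start-point and 548 CPM at the end-point. The part of miR-23a-3p in the result for the ratio was not tested. In the main test by edgeR the log2 fold change of miR-23a-3p was 3.03 ± 0.70 (SE), adjusted p 0.00205, where 33.7% of all smRNAs were called. A higher miR-23a-3p lowers the ratio, so a ratio not shown to differ is no measure of unchanged miR-451a. Without end-point library 2, in which miR-451a was at 0, the difference was 2.32 with an exact permutation p of 0.0222, unadjusted. End-point libraries 7, 4 and 5 had the highest ratios, at -1.22, -2.02 and -2.68, and library 6, the highest in miR-451a itself, was at -4.65. In libraries without a count of miR-451a the ratio is set by the added 0.5 and the level of miR-23a-3p.

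miR-486a, by contrast, was present in every start-point library and lower on average at the end-point, but neither arm passed the main test. miR-486a-5p, the arm that is abundant in red cells and muscle, ran from 149 CPM to 1006 CPM at the start-point with a median of 349 CPM, library 1 being the highest. At the end-point it ran from 12.4 CPM in library 2 to 493 CPM in library 1 with a median of 61.9 CPM. Libraries 2, 3, 4 and 5, with 2 to 6 counts each, lay below every start-point library, and libraries 1, 6 and 7 within their range. Its log2 fold change of -1.27 ± 0.57 (SE) had an edgeR p of 0.0361, adjusted 0.0855. miR-486a-5p was lower in 5 of 6 mice, the exception being mouse 11, at 323 and 345 CPM.

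miR-486a-3p, the opposite arm of the same hairpin, had the smallest adjusted p of the tested members. It ran from 118 to 606 CPM at the start-point with a median of 223 CPM, library 10 being the highest, and from 0 to 298 CPM at the end-point with a median of 46.3 CPM. End-point libraries 1, 2, 4, 5 and 6 lay below every start-point library, with 0 to 7 counts each, while libraries 3 and 7, which held 7 and 19 counts in shallow libraries, were at 217 and 298 CPM. Its log2 fold change of -1.30 ± 0.56 (SE) had an edgeR p of 0.0278, adjusted 0.0724. By CPM it was lower in 5 of 6 mice, the exception being mouse 3. After division by the TMM factors it was lower in mouse 3 (175 and 147) and higher in mouse 11 (216 and 276). It was called lower when the 3 libraries with fewer than 75000 counts were left out, at -1.97 ± 0.40 (SE), edgeR adjusted p 0.00075, in a fit that called 33.6% of all smRNAs. Leaving out end-point library 7 alone gave -1.82 with an edgeR adjusted p of 0.0155, where 29.6% were called. DESeq2's Wald test called both miR-486a arms, with adjusted p of 0.00604 for miR-486a-3p and 0.0451 for miR-486a-5p, and limma-voom called miR-486a-3p, with 0.0154. DESeq2 called 41% of all smRNAs and limma-voom 28.5%, or 28.1% with mouse as a random block. With end-point library 1 left out, edgeR called miR-486a-5p, at -1.62 and an adjusted p of 0.0408, among 35.3% of all smRNAs.

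miR-486b-5p did not share this pattern. It ran from 17.5 to 223 CPM at the start-point with a median of 129 CPM, and from 0 to 266 CPM at the end-point with a median of 120 CPM. The time points overlapped, with end-point libraries 6 and 7 above every start-point library and library 1 at 0. When CPM was divided by the TMM factors, 4 end-point libraries lay above and 2 below every start-point library, while the counts of libraries beyond the start-point range given for the other 3 miRNAs were the same. The log2 fold change of 0.65 ± 0.56 (SE) had an edgeR adjusted p of 0.379 and turned to -0.07 when libraries were scaled by their totals only. By CPM, miR-486b-5p was lower in 3 and higher in 3 of the 6 mice. After division by the TMM factors mouse 5 turned from lower to higher, at 139 and 216. Leaving out the 3 shallow libraries made it called higher, at 1.18 and an edgeR adjusted p of 0.0325, but scaling the remaining libraries by their totals only gave 0.08 with an edgeR adjusted p of 0.917. That last fit called 53.7% of all smRNAs, 44.7% lower, and both miR-486a arms among them.

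Of the 4 members in the table, 3 passed the filter and 0 were called at an adjusted p under 0.05 in edgeR, although 2 had an unadjusted p under 0.05. Over all 1270 smRNAs tested, 428 were called, or 33.7%, and 207 were called lower, or 16.3%. With DESeq2's size factors in place of TMM factors edgeR called 34%, and 1 of the 3 members, miR-486a-3p, with an adjusted p of 0.0485. Library totals in place of TMM factors moved the median log2 fold change of all tested smRNAs from -0.18 to -0.65, and the share of calls that were higher from 51.6% to 31.9%. Relative to that median, miR-486a-3p was at -1.11 with TMM factors and -0.95 with totals only, miR-486a-5p at -1.09 and -0.65, and miR-486b-5p at 0.83 and 0.58. With mouse as a block edgeR again called 0 of the 3, where 8.19% of all smRNAs were called, with log2 fold changes of -1.73 for miR-486a-3p and -1.67 for miR-486a-5p and adjusted p of 0.150 and 0.126.

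**Figure D2:**
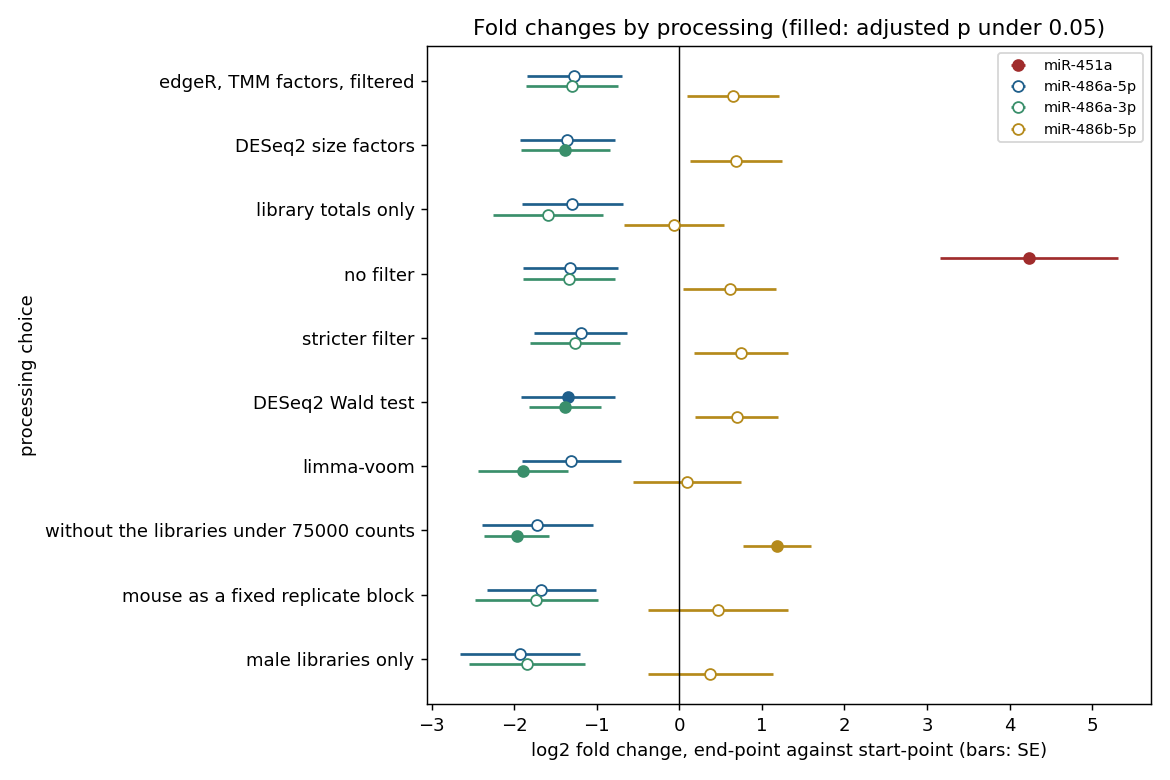
Log2 fold changes of end-point against start-point with SE for each miRNA under 10 processing choices, with filled points where the adjusted p was under 0.05. miR-486a-5p and miR-486a-3p lie below 0 throughout, miR-486b-5p above 0 except with library totals only (-0.07), and miR-451a appears only without the filter, at 4.24.

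**Figure D3:**
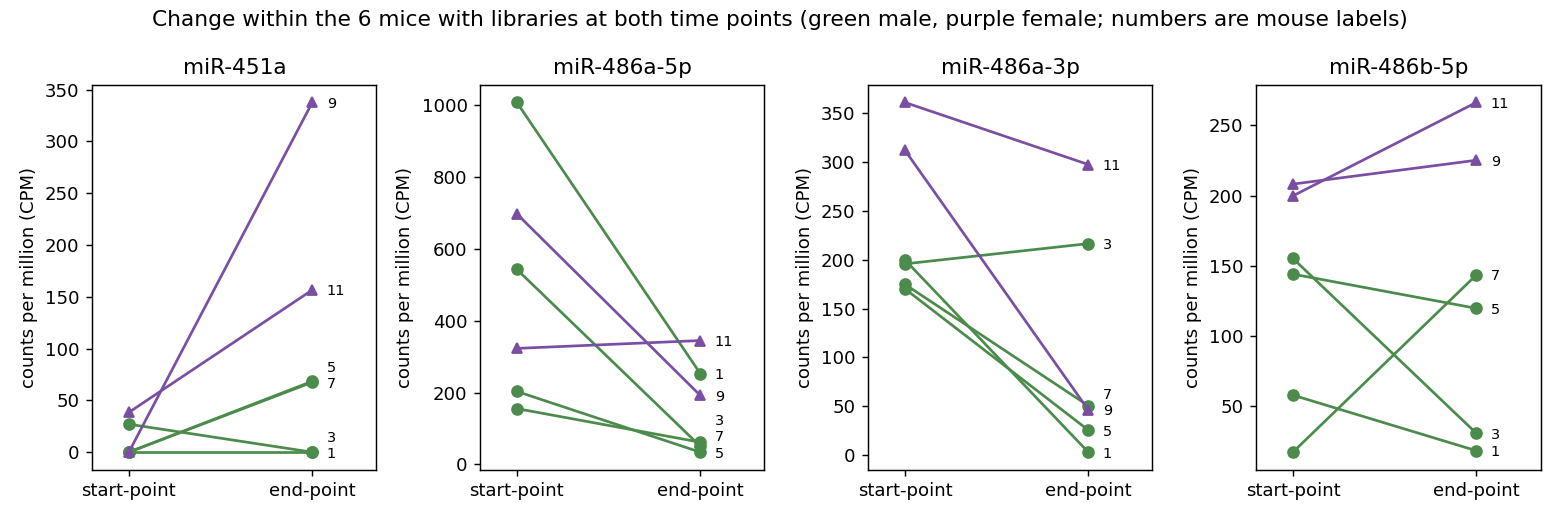
CPM at the start-point and end-point in the 6 mice with libraries at both, 1 line per mouse, with the end-point libraries of mouse 1 averaged. miR-486a-5p and miR-486a-3p were each lower in 5 of 6 mice, miR-451a was higher in 4 of 6, and miR-486b-5p went either way.

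The comparison of females with males, with time point as a covariate, called 0 of the 3 tested members in edgeR, none of which had an unadjusted p under 0.05. Over all 1401 smRNAs tested it called 0%, with 136 at an unadjusted p under 0.05, while DESeq2 called 35 smRNAs and limma-voom 0, none of them a member. The log2 fold changes were 0.83 ± 0.55 (SE) for miR-486a-3p, 0.23 ± 0.62 for miR-486a-5p and 0.86 ± 0.58 for miR-486b-5p. All 3 female start-point libraries held more miR-486b-5p, from 200 to 223 CPM, than any male start-point library, whose highest value was 155 CPM. Divided by the TMM factors, the scaling of the main test, the female values were 117 to 141 and the highest male value 139, so the sexes overlapped. Scaling by library totals only gave unadjusted p under 0.05 for 2 members, miR-486a-3p at 1.32 and miR-486b-5p at 1.46, with edgeR adjusted p of 0.383 and 0.349.

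The 2 arms of miR-486a were read against each other because red cells are known to hold mostly the 5p arm. The log2 ratio of miR-486a-5p to miR-486a-3p averaged 0.50 ± 1.05 (SD, n = 10) in start-point and 1.07 ± 2.33 (SD, n = 7) in end-point libraries. In 4 of 10 start-point libraries the miR-486a-3p row was the more abundant. This ratio leaves out the 5p reads counted in the miR-486b-5p row, and the split between these rows is uncertain. It therefore does not give the share of the 5p arm in miR-486 as a whole. The difference between the time points was 0.57 (exact permutation test, two-sided, p = 0.553), and without end-point library 1 it was -0.21. End-point library 1 held 27 counts of the 5p arm and 0 of the 3p arm. The ratio of miR-486a-5p to miR-486b-5p also varied widely, from 0 to 4.74 on the log2 scale at the start-point and from -1.69 to 5.78 at the end-point. Start-point libraries 1, 6 and 7 had the highest values of their group, and end-point libraries 2, 4, 5 and 6 were below 0, a range no start-point library reached. For the difference of -1.43 the exact permutation test gave p = 0.193, or 0.311 adjusted. It was -2.34 without end-point library 1 (exact permutation p = 0.0119). Without the 3 libraries under 75000 counts it was -2.92 (exact permutation p = 0.00899). It was -1.15 without end-point library 2 (exact permutation p = 0.305) and -1.63 in male libraries only (exact permutation p = 0.288). Paired within mice it was -1.95 (exact sign-flip permutation p = 0.0938). These subset and paired p are unadjusted. When the 2 rows were summed into 1 miR-486 5p value, the change on the log2 scale was -0.64 ± 0.45 (SE), edgeR adjusted p 0.286.

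Across libraries the 3 miR-486 rows were not shown to vary together. In all, 6 relations were computed, each pair within each time point, on log2 CPM. Between the 2 arms of miR-486a, Pearson's r was 0.367 at the start-point (permutation p = 0.300, n = 10) and -0.003 at the end-point (exact permutation p = 0.997, n = 7), with Spearman's rho of 0.382 (permutation p = 0.279) and 0 (exact permutation p = 1.0). Without the 2 libraries farthest from the median of miR-486a-5p, r was 0.268 and 0.198. By Pearson's r, the relation with the smallest p was that of miR-486a-5p with miR-486b-5p at the start-point, at r = -0.617 (permutation p = 0.0534, n = 10). Its rho was -0.491 (permutation p = 0.152), and its r was -0.502 without the 2 farthest libraries. Adjusted over the 6 relations its p was 0.320 for r and 0.456 for rho. Between miR-486a-3p and miR-486b-5p r was -0.389 at the start-point (permutation p = 0.266, n = 10), and 0.48 when libraries were scaled by their totals only, so its sign depends on the scaling. The rho of this pair there, -0.576, had the smallest Spearman p (permutation p = 0.0877, adjusted 0.456). At the end-point r was 0.507 (exact permutation p = 0.241, n = 7). Without the 2 libraries farthest from the median of miR-486a-3p, r was -0.696 at the start-point and -0.373 at the end-point.

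No correlation between miR-451a and another member is given, because miR-451a averaged 5.06 counts per library, under the minimum of 10. Likeness of pattern was ranked by Spearman's rho of log2 CPM over the 17 libraries, as a description. For miR-451a this ranking rests on few counts, with 8 start-point and 3 end-point libraries at 0. Among 1267 other smRNAs that passed the filter, those most like miR-451a were miR-7686-5p (rho 0.774), miR-125b-2-3p (0.737) and miR-7677-3p (0.701). Within the start-point their rho was 0.588, 0.467 and 0.208, and within the end-point 0.704, 0.704 and 0.785. For miR-486a-5p those most alike were miR-100-5p (0.819), miR-7050-5p (0.806) and miR-6998-5p (0.789). Within the start-point their rho was 0.855, 0.6 and 0.552, and within the end-point 0.571, 0.75 and 0.857. These values describe the libraries at hand, which share depth and scaling between the miRNAs compared. The rho over 17 libraries also takes in any difference between the time points.

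**Figure D4:**
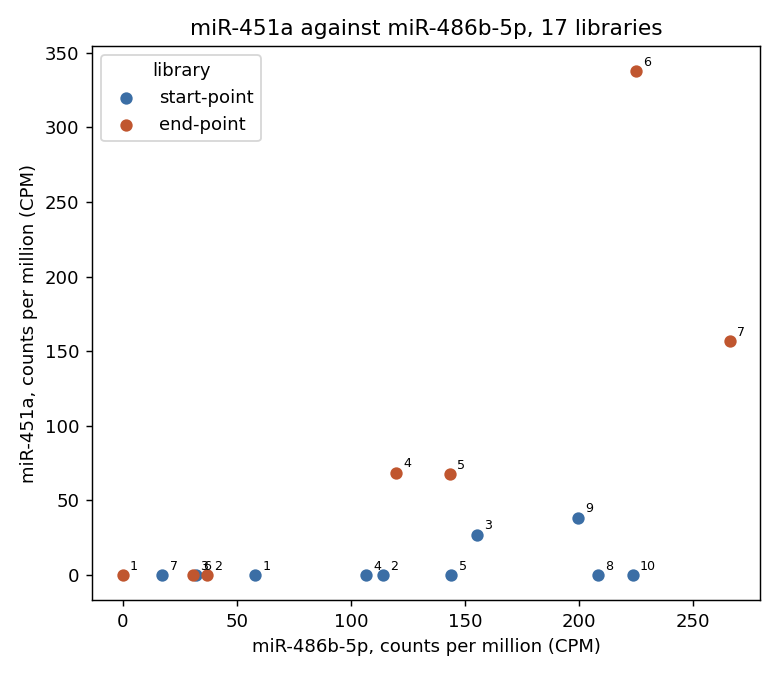
CPM of miR-451a against miR-486b-5p in 17 libraries, with the replicate number beside each point. The 4 end-point libraries with miR-451a held from 120 to 266 CPM of miR-486b-5p, and the 3 without it, of which 2 were under 75000 counts, held at most 37.1 CPM. The 8 start-point libraries without miR-451a held from 17.5 to 223 CPM of miR-486b-5p, so its absence did not go with low miR-486b-5p there. The miR-486a arms did not separate the end-point libraries in this way. Those with miR-451a held 34.2 to 345 CPM of miR-486a-5p, and those without it 12.4 to 493 CPM. For miR-486a-3p the ranges were 25.7 to 298 and 0 to 217 CPM.

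Other miRNAs that are abundant in red cells, but made in most tissues, were read beside the members. Of 12 listed, 8 were in the table and tested, with 1 called higher and 1 called lower, where 33.7% of all smRNAs were called. Their median log2 fold change was 0.04, against -0.18 over all smRNAs tested. miR-185-5p was called higher (log2 fold change 2.21, edgeR adjusted p 0.0103) and miR-363-3p lower (-1.99, 0.00758). miR-16-5p, a very abundant red cell miRNA that the miR-15/16 genes give in nearly all cells, averaged 738 ± 294 CPM (SD) at the start-point and 1114 ± 1774 CPM (SD) at the end-point (log2 fold change 1.17, edgeR adjusted p 0.145). miR-92a-3p, another major red cell miRNA, averaged 1509 ± 522 and 948 ± 504 CPM (SD; -0.28, 0.568). Their summed level ran from 2920 to 11303 CPM at the start-point and from 1248 to 8045 CPM at the end-point.

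Markers of tissues that could also give these miRNAs were read beside them. Over all 1270 smRNAs, the same test called 33.7%, and 16.3% lower, with a median log2 fold change of -0.18. Of 6 striated muscle miRNAs, which bear on miR-486, 4 were in the table and tested, and 3 of the 4 were called lower: miR-499-5p (log2 fold change -2.91, edgeR adjusted p 0.00603), miR-133a-3p (-1.94, 0.0446) and miR-208a-3p (-1.62, 0.0017). miR-133b-3p was at -0.89 with an edgeR adjusted p of 0.233, and the median of the 4 was -1.78. Their summed level ran from 793 to 4810 CPM at the start-point and from 284 to 1609 CPM at the end-point, and their part in the miR-486a values was not tested. Of 7 leukocyte and platelet miRNAs, 4 were in the table and 3 tested, with 1 called higher, miR-223-3p of neutrophils (2.38, edgeR adjusted p 0.00187), and 0 lower, and their summed level ran from 387 to 3361 and from 237 to 3114 CPM. miR-142a-3p, a miRNA of white blood cells, was at 0 in 3 end-point libraries but was not called (-0.84, edgeR adjusted p 0.55). Of 10 gut epithelial miRNAs, 9 were in the table and tested, with 3 called higher and 4 lower, a median of -0.82 and sums of 3778 to 19933 and 3032 to 38181 CPM. The part of leukocytes or epithelium in the miR-451a values was not tested.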

How the data were processed

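Small RNA libraries were made from fecal exosomes with a kit that adds unique molecular identifiers, per the labels' protocols. The authors deposited whole-number counts per smRNA and library. bcl2fastq and build GRCm38 are named in the submitters' processing notes, while the aligner, the counting rule and the use of the identifiers are not given in the sources used here. The smallest maximum over libraries of any smRNA row was 10 counts. The members and lists were chosen with earlier results of these data known.

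From the counts, all smRNAs that passed filterByExpr were tested by edgeR's quasi-likelihood test (edgeR 4.0.16, R 4.3.3), with TMM factors and Benjamini-Hochberg adjustment, by time point over all 17 libraries, and by sex with time point as a covariate. Calls are at an adjusted p under 0.05. CPM is the count divided by the library total. For correlations, log2 CPM took a prior count of 2 after TMM scaling, with 100000 permutations for 10 libraries and exact enumeration for 7. Single values were tested by exact permutation, two-sided, over all 19448 regroupings, and the 4 such tests were adjusted together. Of these, 3, and the other settings of the unfiltered fit for miR-451a, were added after the data were seen. Replicates are libraries, and 6 mice had libraries at both time points by their labels. That pairing was checked: deviations from the group mean correlated between libraries of one mouse at 0.094 on average (7 pairs). Alternatives included DESeq2 1.42.0, limma-voom (limma 3.58.1), other scalings and filters, mouse as a block and subsets of libraries. The scripts were tested on simulated data. For the named smRNAs, all members were reported, with list members called by time point and the 3 smRNAs most alike to miR-451a and to miR-486a-5p. The planned correlation tests of miR-451a with other members were not made, because it averaged 5.06 counts per library, under the minimum of 10. Mature sequences were matched by name for 3 of the 7 members.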

Additional observations from a re-analysis of the deposited data

Results flagged for a closer look

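Among 14 groups of values searched for a library far from the rest, 2 held one, and chance alone marks about 1 group in 20. miR-486a-3p at 606 CPM in start-point library 10 stood apart from the other 9 start-point libraries, which reached 361 CPM. The log2 ratio of miR-486a-5p to miR-486b-5p of 5.78 in end-point library 1 stood apart from the other end-point libraries, which reached 0.74, and rests on 27 counts against 0 in a library of 54747 counts.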

How the results depend on the processing

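The number of members called between time points, 0 of 3, was 1 with DESeq2 size factors, with limma-voom and with mouse as a random replicate block in limma-voom (miR-486a-3p each time), and 1 without a filter (miR-451a). These fits called 34%, 28.5%, 28.1% and 33.2% of all smRNAs. It was 2 with DESeq2's Wald test (both miR-486a arms) and 2 without the libraries under 75000 counts (miR-486a-3p lower, miR-486b-5p higher), or, with the remaining libraries scaled by totals only, both miR-486a arms, among 41%, 33.6% and 53.7% of all smRNAs. Leaving out single libraries gave 0 to 1: miR-486a-5p was called without end-point library 1 (-1.62, edgeR adjusted p 0.0408) and miR-486a-3p without library 7. The count stayed at 0 with mouse as a fixed replicate block, and the sex comparison called 0 members in every setting run. The direction of miR-486a-5p and of miR-486a-3p was the same in every setting run. Library totals only turned miR-486b-5p to -0.066, and turned 2 correlations: miR-486a-5p with miR-486a-3p at the end-point to 0.15, and miR-486a-3p with miR-486b-5p at the start-point to 0.48. The cause was not tested.

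The difference in log2 miR-451a CPM was 1.90 in male libraries only (exact permutation p = 0.0732) and 2.87 paired within mice (exact sign-flip permutation p = 0.0938). For the ratio of miR-451a to miR-23a-3p it was 0.60 in male libraries only (exact permutation p = 0.673). It was 1.15 without the libraries under 75000 counts (exact permutation p = 0.405) and 1.86 paired within mice (exact sign-flip permutation p = 0.281). It was 0.82 to 2.32 leaving out single libraries, the highest without end-point library 2, the second of mouse 1. For miR-486a-5p to miR-486a-3p it was -0.10 paired within mice, and -0.21 to 1.01 leaving out single libraries. For miR-486a-5p to miR-486b-5p it was -2.92 without the libraries under 75000 counts, and -2.34 to -1.10 leaving out single libraries. In male libraries only it was -1.63 (exact permutation p = 0.288), and paired within mice -1.95 (exact sign-flip permutation p = 0.0938). Counts of 0 to 10 in most libraries limit miR-451a, whose absence from a library of low total says little. The planned correlation tests between miR-451a and other members, with their alternatives, were not run, for want of counts.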
